A study of Mus musculus with 10 samples.

Results

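The genes described here are 10 markers used to tell subtypes of deep-layer cortical projection neurons apart, namely *Crym*, *Ldb2*, *Tle4*, *Etv1*, *Lmo4*, *Pcp4*, *Foxp1*, *Zfpm2*, *Nfia* and *Nfib*. They were chosen by name from the 24453 genes of the count table, with earlier results of these data known. RNA-seq libraries had been made from intratelencephalic projection neurons (IT-PNs, neurons whose axons stay within the telencephalon) of layer 5 of the primary motor cortex (M1) of the right hemisphere, 5 of them from *Fezf2+ve* cells and 5 from *Fezf2−ve* cells. Each of 5 animals gave 1 library of each type. All animals were male and hemizygous for the (Zfp312-EGFP)CO61GsatMmnc transgene, bred on Swiss Webster, and received a fluorescent retrograde tracer (cholera toxin subunit B, CTB) in the left M1 on postnatal day 23 to 25. Cells were sorted on postnatal day 28 to 32. *Fezf2+ve* cells carried GFP and CTB, and *Fezf2−ve* cells carried CTB alone. GFP was driven by regulatory elements of *Fezf2*, so that the types are defined by the reporter and not by the *Fezf2* transcript. RNA was amplified by PCR and by in vitro transcription before sequencing.

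Projection neurons of the deep cortical layers are grouped by where their axons go. Corticospinal and other subcerebral neurons of layer 5 project to the brainstem and spinal cord, corticothalamic neurons of layer 6 to the thalamus, and callosal neurons, which are intratelencephalic, to the other hemisphere. *Fezf2* is a transcription factor required for subcerebral identity. *Crym*, *Ldb2* and *Pcp4* are used as markers of subcerebral neurons, *Etv1* of layer 5, *Tle4* and *Zfpm2* of corticothalamic neurons, and *Lmo4* of callosal neurons. *Foxp1* is a forkhead factor found in several cortical layers, and *Nfia* and *Nfib* are nuclear factor I genes that act in the differentiation of both neurons and glia.

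Reads on genes numbered between 107643 and 203379 (median 118134) in *Fezf2+ve* and between 89138 and 217738 (median 168711) in *Fezf2−ve* libraries. At this depth 3 reads, taken as the floor of detection, correspond to 13.8 to 33.7 CPM (read counts scaled to a common library total) in single libraries. These floors cover counting error only, because the values are read counts and PCR copies are not independent. Counts of animals with a higher or lower level compare CPM, also where both libraries of an animal were under the floor. *Fezf2* had 1 read in all, in *Fezf2+ve* library 5, and was not detectable at this depth. Some libraries stood apart. In *Fezf2+ve* library 1, *Sema6a* took 29.8% of the reads on genes, and the ERCC spike-in (synthetic RNAs added before reverse transcription) made up 46.7% of the reads on genes and spike-in. This share was 24.8% and 27.1% in *Fezf2−ve* libraries 1 and 2 and 2.79 to 12.6% in the other 7 libraries. In *Fezf2+ve* library 4, a single ERCC transcript took 84.0% of the spike-in reads, and 3990 genes had a read, the fewest of the 10 libraries.

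The label of the cells was compared with lists of cell type markers. Markers of excitatory cortical neurons were uneven. Of their 10 genes, *Tbr1* was at 0 reads in all libraries, *Neurod6* and *Neurod2* had 2 reads each and *Slc17a7*, the vesicular glutamate transporter of cortical neurons, had 11 reads over the 10 libraries. *Nrn1* and *Rbfox3* had 6 and 11 reads. The most abundant, *Camk2a*, had 588 reads, of which 529 were in *Fezf2−ve* library 3. *Syt1* and *Snap25*, genes of synaptic vesicle release, had 72 and 62 reads, led by 279 CPM in *Fezf2+ve* library 2 and 296 CPM in *Fezf2+ve* library 1. The summed level of this list was 601, 399, 263, 26.4 and 103 CPM in *Fezf2+ve* libraries 1 to 5 and 101, 123, 3319, 52.0 and 41.3 CPM in *Fezf2−ve* libraries 1 to 5. *Syt1*, *Camk2a* and *Snap25* reached 3 reads in 7, 6 and 5 of the 10 libraries, and *Tbr1*, *Neurod6*, *Neurod2*, *Slc17a7*, *Nrn1* and *Rbfox3* in at most 2. The 8 inhibitory neuron markers had 11 reads in all, with *Gad2* highest at 6 reads and *Slc32a1*, *Pvalb*, *Vip*, *Lhx6* and *Dlx1* at 0. Their summed level was 4.92 CPM in *Fezf2+ve* library 5 and 0 in the other *Fezf2+ve* libraries, and 0, 44.9, 11.9, 4.73 and 13.8 CPM in *Fezf2−ve* libraries 1 to 5.

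Markers of other cells were also found. Microglial markers summed to 254, 167, 84.7, 66.0 and 123 CPM in *Fezf2+ve* libraries 1 to 5 and to 6610, 4241, 6650, 1807 and 3927 CPM in *Fezf2−ve* libraries 1 to 5, so that the ranges did not overlap. All 12 of these markers had a negative log2 fold change (median -4.88), *Ctss* was the most abundant with 817 reads, and none was at 0. An unadjusted p under 0.05 was found for 9 of the 12 (edgeR with the block), of which 0 were called, while DESeq2 with the block called 9 and edgeR without the block 8. Haemoglobin and other blood genes summed to 1210, 149, 16.9, 0 and 0 CPM in *Fezf2+ve* and to 5860, 4555, 320, 383 and 9.19 CPM in *Fezf2−ve* libraries, led by *Hbb-bs* with 410 reads. None of these 6 genes was at 0. All 5 tested blood genes had a negative log2 fold change (median -4.01) and an unadjusted p under 0.05 (edgeR with the block), of which 0 were called, while DESeq2 with the block called 2, *Hba-a1* and *Hba-a2*. *Hbb-bs* and *Hbb-b1* had the same count in each library, as did *Hba-a1* and *Hba-a2*, and these near-identical copies cannot be told apart. The sums hold both copies of each pair, and with 1 copy of each they were 753, 92.9, 8.47, 0 and 0 CPM in *Fezf2+ve* and 3549, 2805, 184, 241 and 4.59 CPM in *Fezf2−ve* libraries. In bulk samples, fewer cells of a type and less RNA per cell cannot be told apart either.

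Glial lineage markers were present in both types. Oligodendrocyte precursor markers, led by *Vcan* with 1008 reads, summed to 2040, 2648, 898, 72.6 and 4706 CPM in *Fezf2+ve* and to 1447, 348, 954, 114 and 1121 CPM in *Fezf2−ve* libraries 1 to 5. *Vcan* gave 4027 CPM of the sum in *Fezf2+ve* library 5. *Sox10* had 17 reads over all libraries, while *Pdgfra* had 3 or more reads in each of the 10. Astrocyte markers summed to 745, 7664, 652, 1761 and 477 CPM in *Fezf2+ve* and to 935, 247, 172, 3804 and 110 CPM in *Fezf2−ve* libraries, with *Slc1a2* highest at 1817 reads and *Gfap* at 0. *Slc1a2* gave 7228 CPM of the sum in *Fezf2+ve* library 2 and 3742 CPM in *Fezf2−ve* library 4, and *Slc1a3* gave 1570 CPM in *Fezf2+ve* library 4. *Aldh1l1*, *Aqp4* and *Gja1* had 6, 12 and 31 reads over the 10 libraries, while *Aldoc* reached 3 reads in 9 of them. The ranges of both types overlapped for both of these lists. Endothelial and mural markers, led by *Flt1* with 26 reads, summed to 8.46 to 92.9 CPM over the 10 libraries. The study assigns the microglial genes to the *Fezf2−ve* IT-PNs themselves. It reports neuronal terms, and no immune term, among the most expressed genes, and cites the same genes in callosal and layer 5a neurons. Whether microglia, blood cells or other glia were in the libraries was not tested here. Their part in the values of the projection subtype markers was not tested either.

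**Figure D1:**
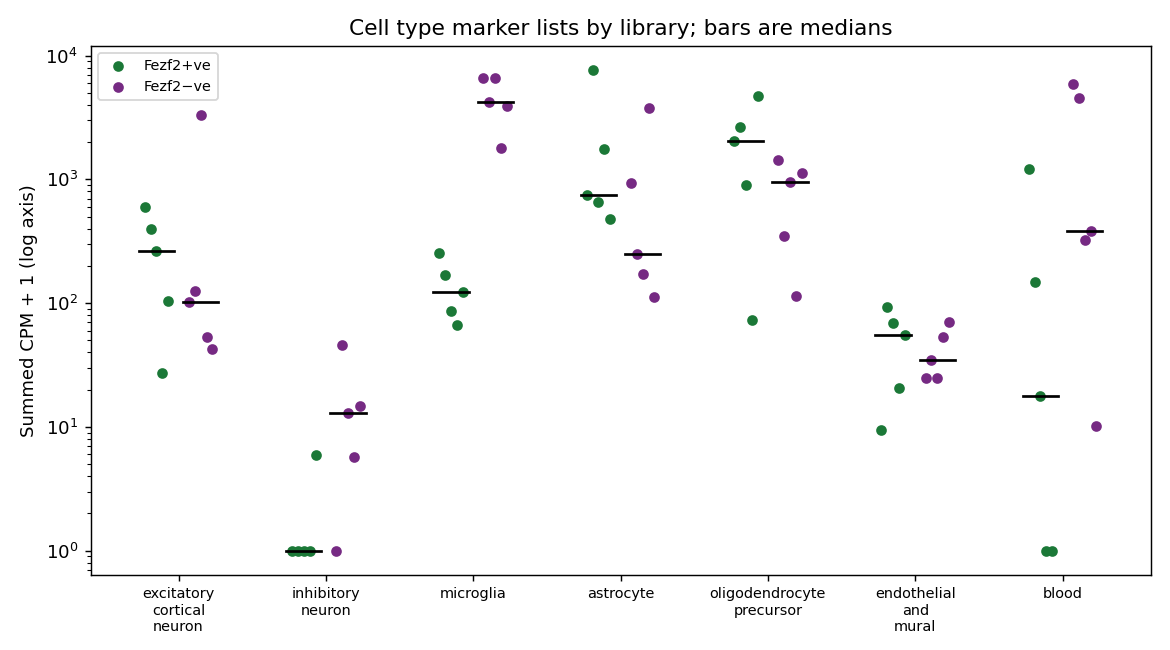
Summed CPM + 1 (log axis) of 7 cell type marker lists, with 1 point per library, *Fezf2+ve* in green, *Fezf2−ve* in purple and medians as bars. The blood list holds both copies of each haemoglobin pair. The microglial list is the one whose types do not overlap, at 66.0 to 254 CPM in *Fezf2+ve* and 1807 to 6650 CPM in *Fezf2−ve* libraries.

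Among the 10 projection subtype markers no difference between the types was called by the main test, which was kept with its counts of calls already known. The test was the quasi-likelihood method of edgeR, blocked by animal, on genes that reached 10 CPM in 2 or more libraries, which were 7409 genes and 8 of the 10 markers. *Crym* and *Lmo4* were left out by this filter. At an FDR at or below 0.1, 0 of the 8 tested markers were called, as were 0 of all 7409 tested genes (0%). The smallest adjusted p of any gene was 0.9925 (edgeR with the block), so that this result does not set the markers apart from other genes. An unadjusted p under 0.05 was found for 0 of the 8 markers and for 288 of all tested genes (3.89%). DESeq2 with the same block called 0 of the markers and 98 genes (1.32%), and gave no adjusted p for *Ldb2*, *Tle4*, *Etv1* and *Pcp4*. Without the block edgeR called 279 genes (3.77%), among them 1 marker, *Nfib*, with an adjusted p of 0.0931. No marker was higher in the *Fezf2+ve* library of all 5 animals (1.62% of tested genes) or lower in all 5 (2.6%), and none had ranges of CPM that did not overlap between the types (1.04%).

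**Figure D2:**
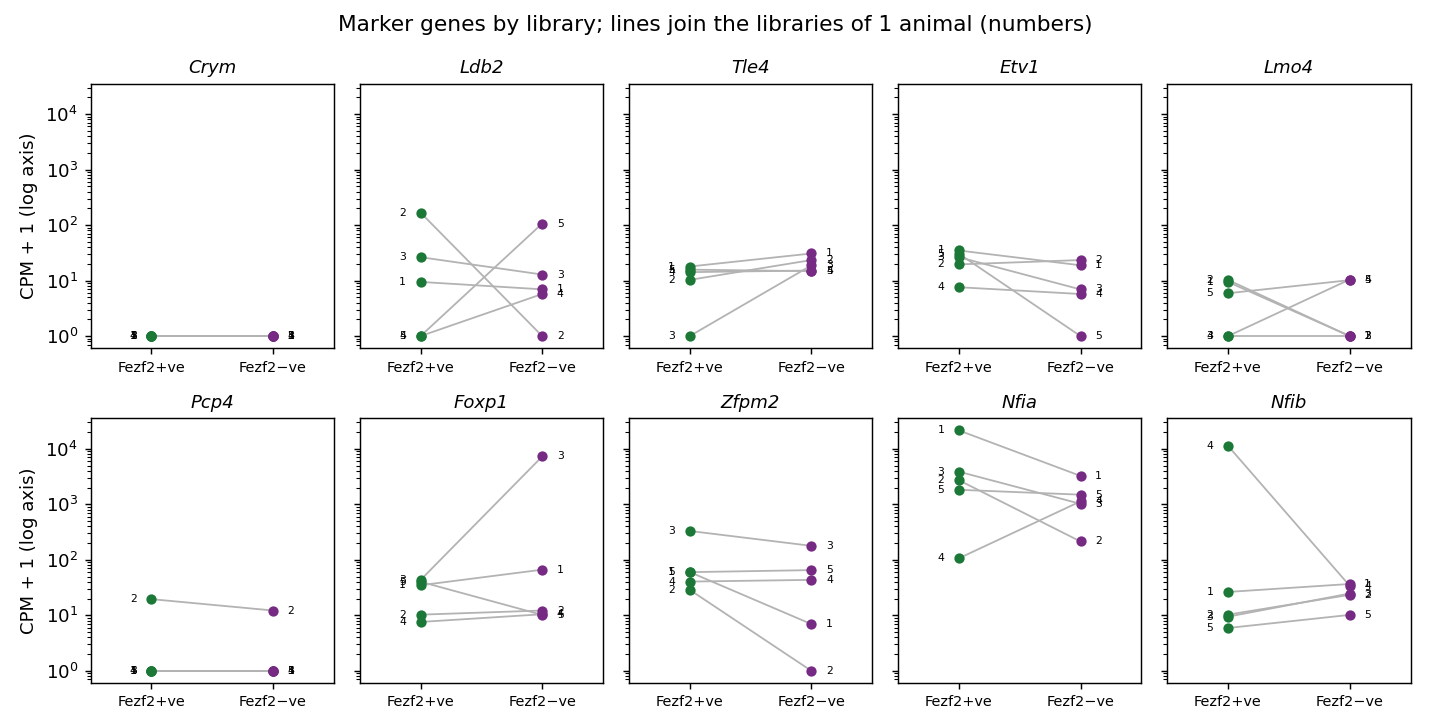
CPM + 1 (log axis) of each of the 10 markers in *Fezf2+ve* (green) and *Fezf2−ve* (purple) libraries, with a line joining both libraries of an animal and the animal's number beside each point. *Foxp1* in *Fezf2−ve* library 3 and *Nfib* in *Fezf2+ve* library 4 lie far above the other 9 libraries, and *Nfia* is above 100 CPM in all 10.

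Of the subcerebral markers, *Crym* was not detected and *Pcp4* barely. *Crym*, which encodes a thyroid hormone-binding protein and lies on the minus strand of chromosome 7 of GRCm38 (the build mm10) from 120186380 to 120202111, had 0 reads in each of the 10 libraries. Over the 1553687 reads of all libraries, a count of 0 allows a level of up to 1.93 CPM. *Crym* is 1 of 9945 genes of the table (40.7%) that had 0 reads throughout. *Pcp4*, which encodes a small calmodulin-binding protein, had 2 reads in *Fezf2+ve* library 2, 1 read in *Fezf2−ve* library 2 and none elsewhere. Both of its libraries with reads came from animal 2, both types were under the floor, and no fold change is given. *Pcp4* (plus strand of chromosome 16, 96467606 to 96525793) overlaps *Igsf5*, which had 5 reads, none of them in the libraries of animal 2.

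*Ldb2* encodes an adaptor that binds LIM domain proteins and lies on the minus strand of chromosome 5 from 44472132 to 44799680. It had 1, 18, 3, 0 and 0 reads in *Fezf2+ve* libraries 1 to 5 and 1, 0, 2, 1 and 23 reads in *Fezf2−ve* libraries 1 to 5. In each type 1 library stood high, from animal 2 in *Fezf2+ve* (167 CPM) and from animal 5 in *Fezf2−ve* cells (106 CPM), and the other libraries had at most 3 reads. *Fezf2+ve* library 2 also had the highest sum of astrocyte markers, 7664 CPM, of which *Slc1a2* alone gave 7228 CPM. *Fezf2−ve* library 5 had the lowest such sum, 110 CPM. The mean level was 40.2 ± 71.7 CPM in *Fezf2+ve* and 25.6 ± 44.9 CPM in *Fezf2−ve* libraries (SD, n = 5), so that the SD exceeded the mean in both. *Ldb2* was higher by CPM in *Fezf2+ve* cells in 3 of 5 animals, in animal 1 with 1 read in each library. The log2 fold change of *Fezf2+ve* over *Fezf2−ve* was 0.10 ± 1.87 (SE; adjusted p = 0.998, edgeR, Benjamini-Hochberg). It was -1.41 without animal 2 and 1.38 without animal 5, and also negative without animal 1 (-0.20) or animal 3 (-0.53).

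*Etv1*, an ETS transcription factor of layer 5 neurons (plus strand of chromosome 12, 38779380 to 38870484), had 4, 2, 3, 1 and 6 reads in *Fezf2+ve* and 3, 2, 1, 1 and 0 reads in *Fezf2−ve* libraries 1 to 5. It was found in 9 of the 10 libraries, and no library held more than 26.1% of its reads. The mean level was 22.8 ± 10.7 CPM in *Fezf2+ve* and 10.2 ± 9.50 CPM in *Fezf2−ve* libraries (SD, n = 5), and the ranges overlapped. In 4 of 5 animals *Etv1* was higher by CPM in *Fezf2+ve* cells, in animal 4 with 1 read in each library. The log2 fold change was 1.42 ± 1.26 (SE; adjusted p = 0.998, edgeR, Benjamini-Hochberg). Without animal 5 this value was 0.71.

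The corticothalamic markers *Tle4* and *Zfpm2* had 24 and 121 reads in all. *Tle4* encodes a Groucho family corepressor and lies on the minus strand of chromosome 19 from 14448150 to 14598051. It had 2, 1, 0, 2 and 3 reads in *Fezf2+ve* and 5, 2, 3, 3 and 3 reads in *Fezf2−ve* libraries 1 to 5, and no library held more than 20.8% of them, the lowest such share among the markers with reads. Its mean level was 10.8 ± 6.67 CPM in *Fezf2+ve* and 19.6 ± 6.67 CPM in *Fezf2−ve* libraries (SD, n = 5). *Tle4* was lower in *Fezf2+ve* cells in 4 of 5 animals, and its log2 fold change of -0.80 was smaller than its standard error of 1.13 (adjusted p = 0.998, edgeR, Benjamini-Hochberg). Without animal 3 it was -0.44.

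*Zfpm2* encodes a cofactor of GATA transcription factors (plus strand of chromosome 15, 40655035 to 41104592). It had 7, 3, 39, 6 and 12 reads in *Fezf2+ve* and 1, 0, 30, 9 and 14 reads in *Fezf2−ve* libraries 1 to 5. Both libraries of animal 3 were the highest of their type, at 330 and 178 CPM. The mean level was 103 ± 128 CPM in *Fezf2+ve* and 58.1 ± 71.9 CPM in *Fezf2−ve* libraries (SD, n = 5). In 3 of 5 animals *Zfpm2* was higher in *Fezf2+ve* cells. The log2 fold change was 1.20 ± 1.15 (SE; adjusted p = 0.998, edgeR, Benjamini-Hochberg). This value was 0.73 without animal 1, whose *Fezf2−ve* library had 1 read, and 0.71 without the block.

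*Lmo4*, a LIM-only protein gene used as a callosal marker (minus strand of chromosome 3, 144188530 to 144205220), had 7 reads in all. There were 1, 1, 0, 0 and 1 in *Fezf2+ve* and 0, 0, 0, 2 and 2 in *Fezf2−ve* libraries 1 to 5. No library reached 3 reads, and a difference between the types was not detectable at this depth.

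*Foxp1*, *Nfia* and *Nfib* held most of the markers' reads, and in each of them 1 library held over 50%. *Foxp1* (minus strand of chromosome 6, 98925338 to 99522721) had 4, 1, 5, 1 and 8 reads in *Fezf2+ve* libraries 1 to 5. In *Fezf2−ve* libraries 1 to 5 it had 11, 1, 1229, 2 and 2 reads. The 1229 reads of *Fezf2−ve* library 3 were 97.2% of its reads, and the level there, 7285 CPM, was 111 times the next highest. Over the other 9 libraries *Foxp1* had 35 reads and a mean of 25.2 CPM. In 4 of 5 animals *Foxp1* was lower by CPM in *Fezf2+ve* cells. Of these, animal 2 had 1 read in each library, and animal 4 had 1 and 2 reads. The log2 fold change was -0.93 ± 1.49 (SE; adjusted p = 0.998, edgeR, Benjamini-Hochberg). Without animal 3 the log2 fold change was 0.12, and without the block, with all animals, it was -5.44 (adjusted p = 0.102, same test).

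*Nfib* (minus strand of chromosome 4, 82290173 to 82705750) had 3, 1, 1, 1718 and 1 reads in *Fezf2+ve* and 6, 2, 4, 7 and 2 reads in *Fezf2−ve* libraries 1 to 5. *Fezf2+ve* library 4, named above for its spike-in reads, held 98.5% of them, and its level of 11333 CPM was 317 times the next highest. The other 9 libraries had 27 reads together, a mean of 19.1 CPM. In the 4 other animals *Nfib* was lower in the *Fezf2+ve* library, in animal 4 higher. The mean was 2276 ± 5063 CPM in *Fezf2+ve* and 24.8 ± 10.5 CPM in *Fezf2−ve* libraries (SD, n = 5), whereas the medians were 9.29 and 23.7 CPM, in the opposite order. Blocked by animal, the log2 fold change was 0.16 ± 2.06 (SE; adjusted p = 0.998, edgeR, Benjamini-Hochberg). Without the block it was 7.22 (adjusted p = 0.0931, same test), which is the only call of a marker among the settings tried. Without animal 4 it was -0.94.

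*Nfia* (plus strand of chromosome 4, 97772734 to 98118874) was the marker with the most reads and the one found at 3 or more reads in all 10 libraries. It had 2539, 293, 458, 16 and 372 reads in *Fezf2+ve* and 546, 19, 172, 239 and 325 reads in *Fezf2−ve* libraries 1 to 5. *Fezf2+ve* library 1, in which *Sema6a* was also high, held 51.0% of them, and *Fezf2+ve* library 4 had the fewest. The level was 6006 ± 8766 CPM in *Fezf2+ve* (median 2722) and 1422 ± 1125 CPM in *Fezf2−ve* libraries (median 1131; SD, n = 5), and the ranges overlapped. *Nfia* was higher in *Fezf2+ve* cells in 4 of 5 animals, with a difference on the log2 scale of 1.40 ± 1.51 (SE; adjusted p = 0.998, edgeR, Benjamini-Hochberg). This value was 0.85 without animal 1, 0.73 without animal 2 and 2.17 without animal 4. The start of *Nfia* overlaps that of *E130114P18Rik* on the opposite strand, which had 507 reads in *Fezf2−ve* library 1, where *Nfia* had 546, and at most 1 read in each other library. With the reads of *E130114P18Rik* subtracted, the log2 fold change of *Nfia* was 1.90.

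**Figure D3:**
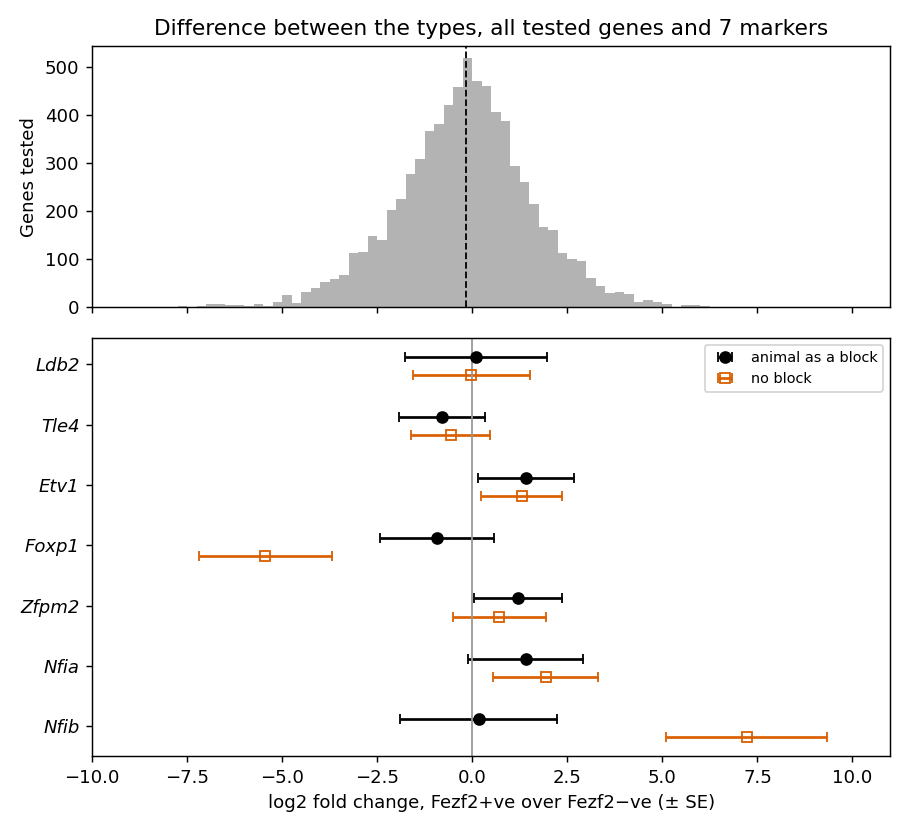
Log2 fold changes of *Fezf2+ve* over *Fezf2−ve* from edgeR, for all 7409 tested genes as a histogram (dashed line at the median of -0.16) and for 7 markers with standard errors, with the animal as a block (black circles) and without it (open squares). *Foxp1* and *Nfib* move from -0.93 and 0.16 with the block to -5.44 and 7.22 without it.

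Over the 8 tested markers the median log2 fold change was 0.24, beside -0.16 over all tested genes. It was 0.16 over the 7 markers other than *Pcp4*, which was under the floor in both types. A positive value was found for 5 of these 7 and 6 of the 8 markers, compared with 45.7% of all tested genes, and no standard error was smaller than 1.13.

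The share of a gene's reads held by 1 library was high throughout these data. More than 50% of the reads came from 1 library for 4 of the 8 tested markers (*Foxp1*, *Nfia*, *Nfib* and *Pcp4*) and for 44.3% of the tested genes. More than 90% came from 1 library for *Foxp1* and *Nfib* and for 7.45% of the tested genes. Among the 1418 tested genes with at least 100 reads, these shares were 77.1% and 32.3%, and *Foxp1*, *Nfib*, *Nfia* and *Zfpm2* were in this class, of which 3 and 2 passed the respective limits. The median share held by the highest library was 49.0% over the tested markers and 50% over all tested genes.

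**Figure D4:**
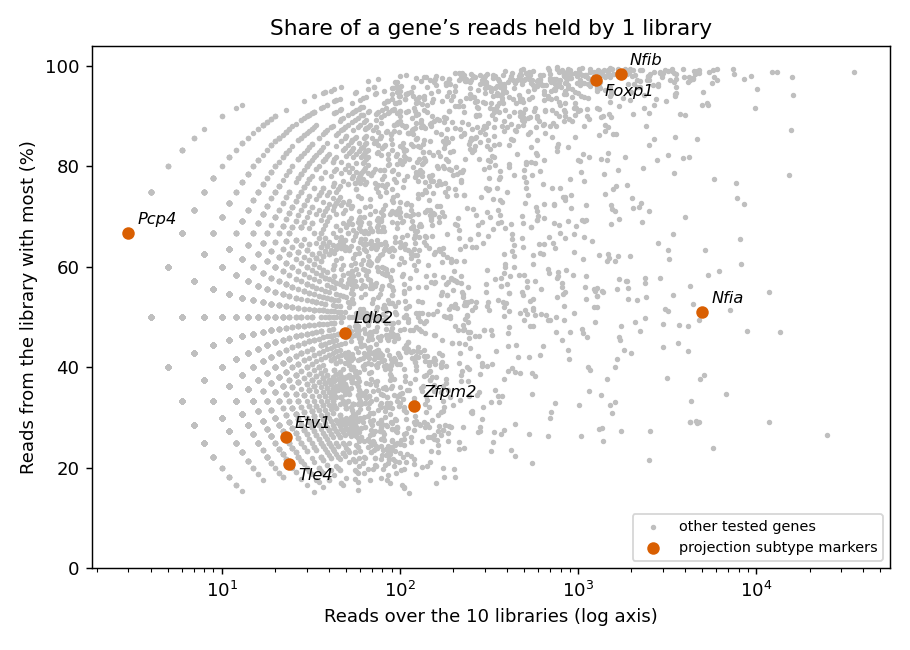
Percentage of a gene's reads that came from the library with most of them, against its reads over the 10 libraries (log axis), for all 7409 tested genes (grey) and the 8 tested markers (orange). *Nfib* and *Foxp1*, at 98.5 and 97.2%, lie among many other genes of similar read number, while *Zfpm2*, *Etv1* and *Tle4* lie below 33%.

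Levels were compared between the markers per length. Whether reads were counted over exons or over whole genes is not given in the sources used here, and by the study's methods the fragments were biased to the 3′ end, where counts depend less on length. The study reports many intronic reads in both types. For genes lying inside another gene, the outer gene had at least as many reads in 52 of 90 values. This held for 47 of 49 values without microRNA genes and for 5 of 41 with microRNA genes. Levels are given per kb of whole genes, per kb of exons and undivided. Per kb of gene span, introns included (from 15.7 kb for *Crym* to 597 kb for *Foxp1*), *Nfia* had the highest median level of the 10 libraries, 4.80 CPM per kb, followed by *Etv1* with 0.200, *Lmo4* with 0.147, *Zfpm2* with 0.113 and *Tle4* with 0.0965 CPM per kb. *Nfib*, *Foxp1* and *Ldb2* had median levels of 0.0555, 0.0377 and 0.0220 CPM per kb of span. These are GENCODE spans, and with the RefSeq spans of 541 kb for *Nfia* and 217 kb for *Nfib* their medians were 3.07 and 0.107 CPM per kb of span. Per kb of exons the median level was 152 CPM for *Nfia*, 5.33 for *Zfpm2*, 2.54 for *Tle4*, 2.16 for *Ldb2*, 1.64 for *Foxp1*, 1.54 for *Nfib*, 1.37 for *Etv1* and 0.696 for *Lmo4*. Exons make up from 1.02% (*Ldb2*) to 21.2% (*Lmo4*) of the spans of these genes. Any intronic reads in the counts are divided by exon length on this scale, which then overstates the level. Not divided by length, the median level was 1661 CPM for *Nfia*, 50.8 for *Zfpm2*, 23.1 for *Nfib*, 22.5 for *Foxp1*, 18.2 for *Etv1*, 14.5 for *Tle4*, 7.21 for *Ldb2* and 2.46 for *Lmo4*. *Nfia* was thus the highest on each scale, with *Crym* and *Pcp4* at 0, while the order of the others changed with the scale. That order rests on counts of a few reads in most libraries and was not tested. By the mean, *Nfib* and *Foxp1* took the places after *Nfia*, with 2.77 and 1.26 CPM per kb of span. Without the library with most reads these means were 0.0461 and 0.0422 CPM per kb of span. The mean of *Nfia* was 10.7 CPM per kb of span, and 5.02 without its highest library.

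**Figure D5:**
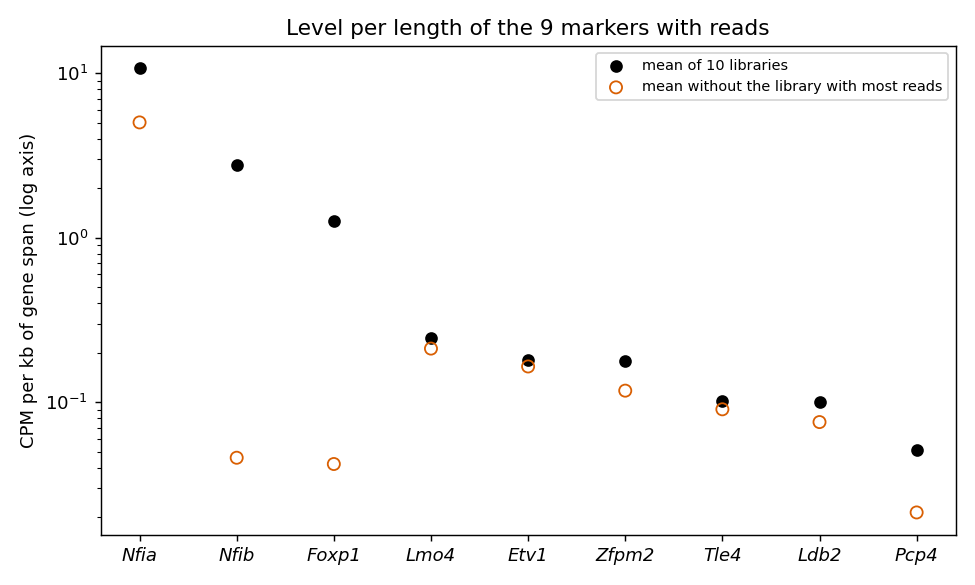
Mean CPM per kb of gene span (log axis) of the 9 markers with reads, over the 10 libraries (black) and without the library with most reads (open circles). *Nfib* and *Foxp1* drop from 2.77 and 1.26 to 0.0461 and 0.0422 CPM per kb, and the other markers move less.

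Other genes used as markers of the same neuron classes were described by the same fit. Of 16 further corticospinal genes, 15 were found by symbol in the count table and 5 were tested. Of these 5, 2 were higher and 3 lower in *Fezf2+ve* cells, with a median log2 fold change of -0.18. An unadjusted p under 0.05 was found for 0 of them (edgeR). *S100a10*, *Nefh*, *Bhlhe22* and *Fam84b* had 0 reads. *Diap3* was not found under this symbol and is left out of these counts. The tested gene *Diaph3*, with 59 reads, was not counted under this name. *Cntn6*, a contactin, had the most reads, 788, of which 731 were in *Fezf2+ve* library 4, the library that also held the reads of *Nfib*. On the log2 scale *Cntn6* differed by 0.84 ± 1.33 (SE; adjusted p = 0.998), and without the block by 5.31 (adjusted p = 0.0972), a call. *Vat1l* had 41 reads, 23 of them in *Fezf2+ve* library 5, where *4933408N05Rik*, which lies inside it on the opposite strand, had 18. *Npr3*, *Chst8* and *Slco2a1* had 13, 9 and 13 reads.

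Of 19 callosal genes, 10 were tested, with 3 higher and 7 lower in *Fezf2+ve* cells, a median log2 fold change of -0.88 and 0 with an unadjusted p under 0.05 (edgeR). In *Chn2*, a Rac GTPase-activating protein gene, 7401 of 7521 reads came from *Fezf2−ve* library 4. The log2 fold change of *Chn2* was -0.80 ± 1.59 (SE; adjusted p = 0.998) with the block and -7.09 without it (adjusted p = 0.0931), also a call. *Ptn*, a secreted growth factor gene, had 704 of 738 reads in *Fezf2+ve* library 3, and *Rorb*, a nuclear receptor gene of layer 4, had 646 of 728 in *Fezf2−ve* library 3. The genes with the smallest p were *Cux1*, *Deptor* and *Cux2*, with log2 fold changes of -2.14, -2.19 and -0.96 (standard errors 1.68, 2.17 and 1.13). *Cux1* had 371 of its 412 reads in *Fezf2−ve* library 1. *Inhba* had 0 reads.

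Of 15 corticothalamic genes, 8 were tested, with 5 higher and 3 lower in *Fezf2+ve* cells and a median log2 fold change of 0.39. *Foxp2*, a forkhead factor of layer 6 neurons and the relative of *Foxp1*, was the 1 gene among them with an unadjusted p under 0.05 (edgeR). It had 6, 2, 31, 1 and 0 reads in *Fezf2+ve* and 560, 5, 665, 3 and 7 reads in *Fezf2−ve* libraries 1 to 5. *Foxp2* was lower in the *Fezf2+ve* library of 5 of 5 animals, which held for 2.6% of all tested genes, and 2 *Fezf2−ve* libraries had nearly all of its reads. The log2 fold change of *Foxp2* was -3.56 ± 1.41 (SE), with an adjusted p of 0.998 from edgeR and of 0.0668 from DESeq2, both with the block, so that DESeq2 called it. *Foxp1*, with an adjusted p of 0.793 from DESeq2, was not called by it. The edgeR fit with the block called no gene at all, and so cannot tell *Foxp2* and *Foxp1* apart. *Ppp1r1b*, a regulator of protein phosphatase 1, had 372 reads in *Fezf2−ve* library 2, 159 in *Fezf2−ve* library 5 and at most 7 in each other library. The overlapping *1700003D09Rik* on the opposite strand had the same count in each library, so that these reads cannot be assigned to *Ppp1r1b*. *Garnl3* had 96 reads. *Tbr1*, *Ntsr1*, *Nr4a2* and *Nxph4* had 0 reads.

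Family members and partners of the markers numbered 25, of which 10 were tested, with 6 higher and 4 lower in *Fezf2+ve* cells, a median log2 fold change of 0.36 and 1, *Foxp2*, with an unadjusted p under 0.05 (edgeR). *Tle3*, the relative of *Tle4*, had 27 of its 29 reads in *Fezf2−ve* library 3, and *Etv4*, the relative of *Etv1*, had 175 of its 182 reads in *Fezf2−ve* library 1. *Nfix*, another nuclear factor I gene, had 98 of its 113 reads in *Fezf2+ve* library 4, where *Nfib* had 1718. In the other 9 libraries *Nfix* had at most 4 reads. *Calm2*, which encodes calmodulin, the protein that PCP4 binds, had 64 reads. *Tle1*, *Tle6*, *Lmo1*, *Pcp4l1* and *Nr2f1* had 0 reads.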

How the data were processed

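RNA-seq libraries of IT-PNs, 5 per type, were compared. Per the submitters' processing notes and the study's methods, the authors trimmed demultiplexed reads, aligned them with TopHat2 2.1.1 to the mouse build mm10 and counted them on RefFlat genes with bedtools 2.26.0. The deposited counts are raw read counts, not normalized, on genes and on ERCC transcripts. A further deposited table holds the authors' own comparison and was not used. The use of strand is not given in the sources used here.

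CPM were computed here over all reads on genes. Genes that reached 10 CPM in 2 or more libraries were normalized with TMM and tested with edgeR 4.0.16 in R 4.3.3 (glmQLFit without its legacy option), with the animal as a block. A call was an FDR (Benjamini-Hochberg) at or below 0.1. The block rests on the labels, by which the cells of 1 animal were separated into both types. Within animals, deviations from the type means had a mean correlation between both libraries of 0.029 over genes (-0.027 to 0.097). The standard error is the log2 fold change over the root of the F statistic. Reads on genes were more in the *Fezf2−ve* library of 4 of 5 animals (p = 0.188 by an exact two-sided permutation within animals, which with 5 pairs cannot fall below 0.0625 and so settles nothing).

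Alternatives were a fit without the block, DESeq2 1.42.0, other size factors, other filters and leaving out each animal. The legacy option, limma 3.58.1 on log2(CPM + 1), leaving out animals 1 and 4, the subtraction of overlapping reads, the blood sum with 1 copy of each pair, and levels per kb of exons or RefSeq span were added after the data had been seen. Members and lists were chosen with earlier results of these data known, and edgeR without its legacy option was kept as the main test because it returned counts of calls already known for these data. Named genes are all 10 markers, and from each further list up to 3 with the smallest p, up to 3 with the most reads and, for cell types, the most abundant gene and those at 0. Others, among them *Neurod6*, *Neurod2*, *Slc17a7*, *Sema6a*, *Igsf5*, *E130114P18Rik*, *4933408N05Rik*, *1700003D09Rik* and further genes at 0 reads, were named after their values were seen. Positions are those of GENCODE on GRCm38, found for 23464 of the 24453 genes. The list of mature oligodendrocyte markers is not reported here.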

Additional observations from a re-analysis of the deposited data

Results flagged for a closer look

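In 8 of the 18 groups of 5 libraries in which a projection subtype marker had reads, the highest library lay so far above the others that its gap to the next took up more than 0.71 of the group's range. With the highest and the lowest library both examined, chance flags about 1 in 20 groups of normally distributed values, and fewer for the highest alone. These counts are sparse and skewed, however. A highest library beyond the limit was found in 41.1% of the 14404 groups of all tested genes with reads, beside 8 of 16 (50%) for the tested markers. Among groups with reads in 2 or more libraries it was 6 of 14 (42.9%) for the tested markers and 33.2% for all tested genes. Both groups of *Pcp4* had reads in 1 library alone, which meets the limit by construction. *Ldb2* was at 167 CPM (18 reads) in *Fezf2+ve* library 2 and at 106 CPM (23 reads) in *Fezf2−ve* library 5. *Pcp4* was at 18.6 CPM in *Fezf2+ve* library 2 and at 11.2 CPM in *Fezf2−ve* library 2, which rest on 2 reads and 1 read. *Foxp1* was at 7285 CPM (1229 reads) in *Fezf2−ve* library 3. *Zfpm2* was at 330 CPM (39 reads) in *Fezf2+ve* library 3. *Nfia* was at 21493 CPM (2539 reads) in *Fezf2+ve* library 1, and *Nfib* was at 11333 CPM (1718 reads) in *Fezf2+ve* library 4. These values come from 7 different libraries.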

How the results depend on the processing

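The number of called genes was 0 with the animal as a block under RLE size factors, library size only, no filter, the stricter filter, the legacy option and without each animal in turn or animals 1 and 4. Without the block it was 279 (1345 genes with an unadjusted p under 0.05), with DESeq2 98 and with limma on log2(CPM + 1) 4. The median log2 fold change of the tested markers, 0.24, stayed positive, at 0.17 with RLE size factors, 0.18 with the legacy option, 0.68 without the block, 0.60 under the stricter filter (6 markers), 0.54 with limma, 0.46 without animals 1 and 4, and 0.26 to 0.54 with 1 animal left out. *Nfib* had a log2 fold change of 7.22 without the block, 0.96 with limma, 0.30 without a filter, 0.047 with the legacy option, -0.089 with DESeq2, -0.027 under the stricter filter, -1.22 without animals 1 and 4, and -0.94 to 0.58 with 1 animal left out. *Ldb2* had -0.028 without the block, -0.33 with limma, and -1.41 to 1.38 with 1 animal left out, and *Foxp1* -2.02 to 0.12. The removal of the block changed no call of a marker other than that of *Nfib*. The signs of *Tle4*, *Etv1*, *Zfpm2* and *Nfia* held under all settings run. *Ldb2* and *Pcp4* fell out under the stricter filter, and *Pcp4* without animal 2. Apart from the smaller sets of genes or animals, the cause was not tested. *Crym*, *Lmo4* and *Pcp4* had no library above 2 reads, and the part of depth in this was not tested.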
